A study of Mus musculus with 16 samples.

Results

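This section describes 10 mouse genes for lipid droplet proteins and fat uptake in RNA from whole liver: Plin2, Plin4, Plin5, Cidea, Cideb, Cidec, G0s2, Pnpla2, Fabp4 and Cd36. They were chosen by symbol, and each matched 1 of the 35275 Ensembl gene IDs of the deposited table. The livers came from wild-type mice (WT) and from mice with a liver-specific knockout of Zfp36l1 (LKO, labelled L1 LKO), and each genotype was fed a control diet or an ethanol diet (EtOH diet in the labels). Each of the 4 groups had 4 libraries, numbered 1 to 4 as the records list them, without any pairing in the labels. Strain, age, sex, diet composition, feeding time and the driver of the deletion are not given in the sources used here. Nor do the labels say whether libraries of a group came from separate mice, so p-values measure the spread between these libraries only.

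A lipid droplet is a core of triglyceride and sterol ester under a single layer of phospholipid, and the proteins on its surface decide how fast fat is stored and released. Perilipins (Plin genes) coat the droplet and control the access of lipases. CIDE proteins (Cidea, Cideb, Cidec) sit where droplets touch and let fat pass from a smaller droplet to a larger one. Pnpla2 encodes the lipase ATGL, which starts triglyceride breakdown, and G0s2 encodes a protein that inhibits it. Cd36 brings long-chain fatty acids across the plasma membrane, and Fabp4 carries them in the cytosol. Hepatocytes store fat in droplets during alcohol feeding in mice and people. Zfp36l1 encodes an RNA-binding protein that binds AU-rich sequence in 3′ untranslated regions (UTRs) and promotes decay of the mRNA.

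Because Zfp36l1 binds UAUUUAU, the corresponding TATTTAT was searched for on the transcript strand in the 3′ UTR of the longest basic coding transcript of each gene (GENCODE M21, GRCm38). It was found in 3 of the 10 genes, Cidec, Pnpla2 and Cd36. Of the 10506 tested genes with a 3′ UTR, 28.8% held it. The 4 sites are shown because they are the places in these genes where this motif occurs, with the motif in capitals and the base after the stop codon at which it begins.
Cidec, base 910: tgcagtaaacTATTTATgctgatacct
Pnpla2, base 377: tgtgaagaatTATTTATttttgccaaa
Cd36, base 167: tgcagatataTATTTATttgtaaatat
Cd36, base 1019: cacagtatgtTATTTATtgtattttat
A match of letters is a description and not a shown binding site.

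Promoter windows of 300 bases (250 before to 50 after a RefSeq start site, GRCm38.p6) were matched for 8 of the 10 genes. Cidea and Fabp4 had no window and were not searched. AGGTCA, the core sequence read by nuclear receptors such as the PPAR family, was searched for on both strands and was present in 3 of the 8 genes (Plin2, Plin5 and Cd36) and in 16.26% of all 32851 windows. The direct repeat of AGGTCA with 1 base between its copies, the form that PPAR and RXR read together, contains that core and was in 0.04% of windows and in none of the 8 genes. Only exact matches were counted, and the absence of so rare a string from 8 genes says little. The Cidec window is shown because Cidec changed most with ethanol, and those of Plin2 and Plin5 because they hold the core, which stands in capitals (TGACCT where it lies on the other strand). The Cd36 window, which holds the core as well, is not shown.
Cidec, chr6:113435711-113436010, minus strand: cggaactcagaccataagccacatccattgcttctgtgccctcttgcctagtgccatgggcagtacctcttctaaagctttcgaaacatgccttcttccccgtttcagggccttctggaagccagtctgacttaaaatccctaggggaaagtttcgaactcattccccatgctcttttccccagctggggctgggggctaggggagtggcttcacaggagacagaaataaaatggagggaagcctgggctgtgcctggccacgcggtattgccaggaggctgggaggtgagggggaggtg
Plin2, chr4:86670010-86670309, minus strand: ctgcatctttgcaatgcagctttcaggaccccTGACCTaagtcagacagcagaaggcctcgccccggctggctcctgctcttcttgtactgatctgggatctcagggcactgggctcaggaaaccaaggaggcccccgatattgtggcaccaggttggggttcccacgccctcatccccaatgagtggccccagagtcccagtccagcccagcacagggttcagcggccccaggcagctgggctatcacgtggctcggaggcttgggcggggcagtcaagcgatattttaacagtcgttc
Plin5, chr17:56117499-56117798, minus strand: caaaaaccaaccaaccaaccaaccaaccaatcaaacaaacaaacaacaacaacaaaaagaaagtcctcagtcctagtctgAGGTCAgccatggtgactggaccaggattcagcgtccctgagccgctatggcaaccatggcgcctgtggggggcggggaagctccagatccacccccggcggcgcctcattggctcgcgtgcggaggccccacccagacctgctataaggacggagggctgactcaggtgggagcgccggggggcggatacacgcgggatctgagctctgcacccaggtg
The second Cidec start has its own window and holds no AGGTCA either, while that of the second Plin5 start holds 1, beginning 13 bases after the start. E-box CACGTG, on both strands, was present in the Plin2 window alone among the 8 genes and in 7.15% of all windows.

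The deposited values are FPKM, a read density corrected for gene length and library size. Differences below are log2 differences of FPKM + 1 from a limma model of all 16 libraries and all 11298 genes that reached 1 FPKM in at least 4 libraries, with the standard error (SE) or 95% confidence interval (CI). Changes of low genes are understated on that scale. A gene was called at a Benjamini-Hochberg adjusted p under 0.05, two-sided. Whole reads could be recovered from the table, and 15 libraries held 19069903 to 24768569 reads. The remaining library, WT ethanol 2, held 9890475, and 22.52% of its reads were mitochondrial against 3.64% to 6.97% in the others. Its Spearman correlation with other libraries was 0.664 to 0.721, against 0.858 to 0.985 among the 15. Zfp36l1 itself had 9.3 to 25.5 FPKM in the 8 WT libraries and 0.572 to 1.76 in the 8 LKO libraries, in keeping with the labels.

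Of the 10 genes, 9 passed the filter on low values, and each of those 9 reached 1 FPKM in at least 15 libraries. Cidea never reached it. The tests of ethanol against control diet called 2 of the 9 in WT, Cidec and Fabp4, both higher, where 4.18% of all tested genes were called. The same 2 genes rose in the mean of both genotypes, where 7.78% were called. In LKO limma called none of the 9, where 0.425% of all genes were called; 3 of the 9 (Cidec, Fabp4 and Plin5) had an unadjusted p under 0.05, against 9.19% of all genes, and voom on whole reads called none. Without WT ethanol 2 the numbers called were 3 of the 9 in WT (9.27% of all genes), 1 in LKO (3.67%) and 5 over both (20.5%). LKO against WT called none of the 9 by limma or voom. The shares of all genes called there were 0.00885% on the control diet, 0.0797% on ethanol and 0.142% over both diets. At an unadjusted p under 0.05 stood 3 of the 9 on the control diet (Plin4, G0s2 and Plin5), 1 on ethanol (Plin4) and 2 over both (Plin4 and Plin5), against 3.45%, 11.9% and 10.4% of all genes. Per length, Plin2 was the most abundant of the 10, with a mean of 355 FPKM over the 16 libraries, followed by G0s2 at 128. Plin5 (45.0), Pnpla2 (35.3), Cd36 (34.8) and Fabp4 (29.7) lay close together and their ranges overlapped, followed by Cidec (20), Cideb (7.95), Plin4 (4.03) and Cidea (0.0603). The place of Cidec rested on the ethanol libraries. Its control means (2.93 FPKM in WT, 2.6 in LKO) lay below those of Cideb (8.94 and 9.37). RNA from whole liver cannot tell a change in the number of cells of a type from a change in RNA per cell.

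**Figure D1:**
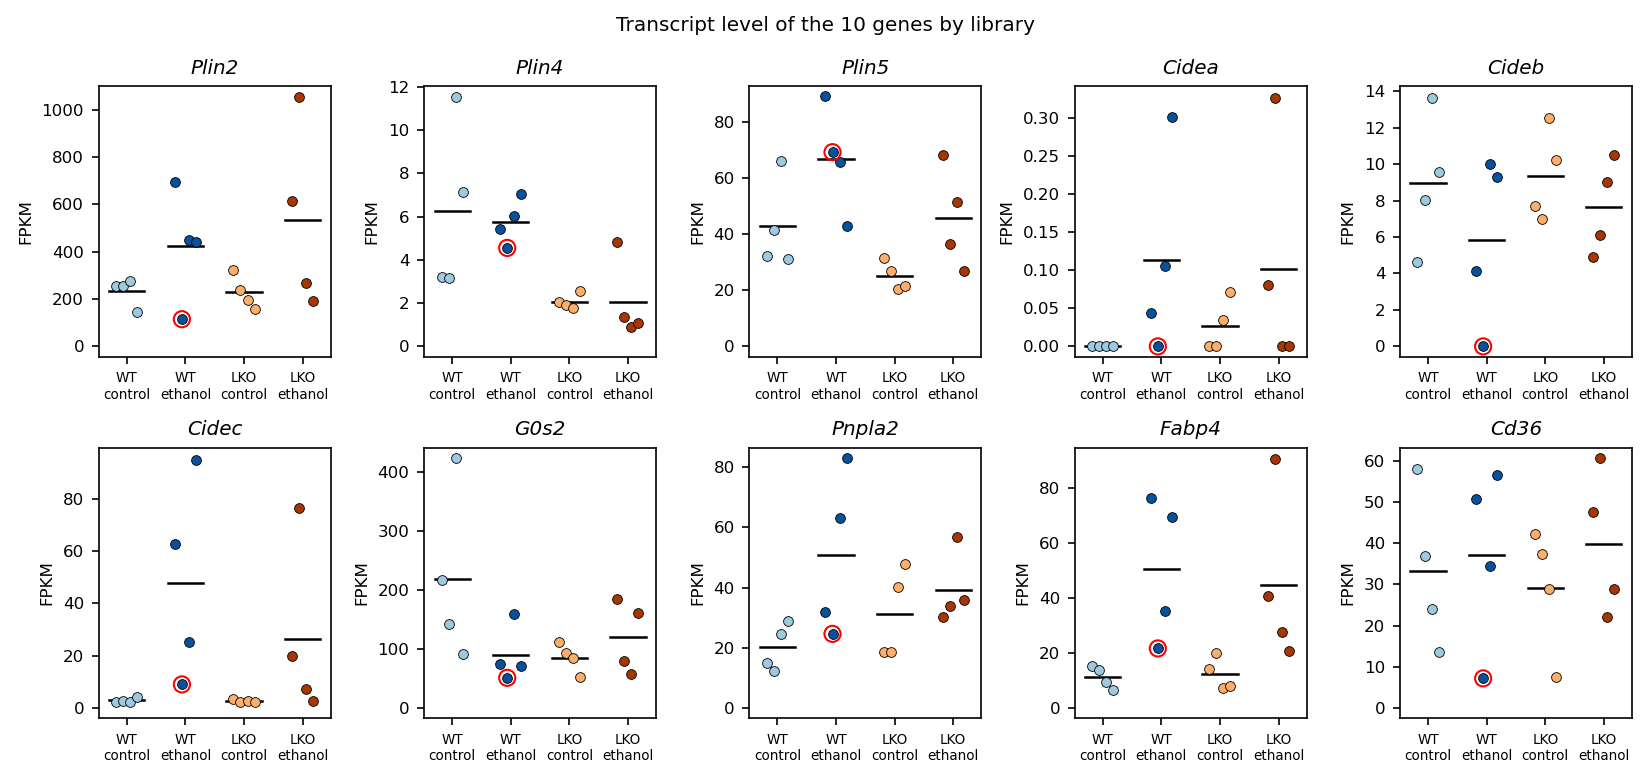
FPKM of each of the 10 genes (vertical axis, linear, 1 scale per gene) in the 4 groups, with 1 point per library in the order 1 to 4 and a bar at the group mean; a red ring marks WT ethanol 2. Cidec and Fabp4 in WT ethanol lie above all WT control libraries, and Plin4 in LKO control lies below all WT control libraries.

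Plin2 encodes the coat protein found on the droplets of most cells and is the main perilipin of hepatocytes (ENSMUSG00000028494, chromosome 4, 86648386 to 86670060, minus strand). WT livers had 254, 257, 275 and 146 FPKM on the control diet and 697, 115, 450 and 443 on ethanol. LKO livers had 321, 237, 198 and 159 without ethanol and 615, 1054, 270 and 192 on ethanol. In WT, 3 of 4 ethanol libraries lay above every control library, while WT ethanol 2 lay below all of them. In LKO, libraries 1 and 2 lay above every control and libraries 3 and 4 within the control range. Group means on ethanol were 426 ± 238 in WT and 533 ± 393 in LKO (SD, n = 4), against 233 ± 58.9 and 229 ± 69.6 on the control diet. Without WT ethanol 2 the WT mean on ethanol was 530 ± 144 (n = 3). The log2 difference was 0.65 in WT (adjusted p = 0.538), 1.19 without WT ethanol 2 (adjusted p = 0.113) and 0.33 without WT ethanol 1. In LKO it was 0.95 (adjusted p = 0.658), 0.52 without LKO ethanol 2 and 1.34 without LKO ethanol 4. The difference over both genotypes was 0.80 (SE 0.38, adjusted p = 0.232) and did not pass. With WT ethanol 2 left out it was 1.07 and passed (adjusted p = 0.0245), where 20.5% of all genes were called, and with LKO ethanol 2 left out it was 0.59 (adjusted p = 0.447). Array weights, and a term for libraries 1 and 2 against 3 and 4 without WT ethanol 2, made Plin2 pass in WT and over both. They called 38.4% and 19.7% of all genes in WT and 36.7% and 32.7% over both. The lower adjusted p of the 2 fits was 0.0117 in WT and 0.00161 over both.

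Plin5 encodes the perilipin of fat-burning tissues, which ties droplets to mitochondria (ENSMUSG00000011305, chromosome 17, 56111601 to 56117596, minus strand). WT livers had 32.3, 41.4, 65.9 and 31.1 FPKM on the control diet and 89.2, 69.1, 65.6 and 42.7 on ethanol. LKO livers had 31.4, 27.0, 20.4 and 21.6 without ethanol and 68.2, 36.4, 51.4 and 26.7 on ethanol. Ethanol libraries lay above all controls in 2 of 4 cases in WT and 3 of 4 in LKO, so the groups overlapped in both genotypes. The differences were 0.65 in WT (SE 0.33, adjusted p = 0.286) and 0.77 in LKO (SE 0.33, adjusted p = 0.467). Over both genotypes the difference was 0.71 (SE 0.23, CI 0.22 to 1.2) with an adjusted p of 0.0701, just short of the threshold. It passed in 4 of the 16 fits that leave out 1 library. These were the fits without WT control 3 (adjusted p = 0.0412), WT ethanol 2 (0.0402), WT ethanol 4 (0.0467) and LKO ethanol 4 (0.0359). In that order they called 6.68%, 20.5%, 6.71% and 8.36% of all genes. It also passed with array weights (0.00831), with a term for libraries 1 and 2 against 3 and 4 (0.0446) and with that term without WT ethanol 2 (0.0195), fits that called 36.7%, 12.3% and 32.7% of all genes. A replicate block of libraries with consecutive title numbers, added after seeing the data, made it pass too, with 10.5% of genes called.

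Plin4, a perilipin of fat and muscle that binds new droplets, was the least abundant per length of the 3 perilipins described here (ENSMUSG00000002831, chromosome 17, 56100591 to 56109803, minus strand). WT livers had 3.22, 3.14, 11.5 and 7.12 FPKM on the control diet and 5.42, 4.55, 6.03 and 7.06 on ethanol. LKO livers had 2.04, 1.91, 1.78 and 2.56 without ethanol and 4.84, 1.36, 0.882 and 1.09 on ethanol. On the control diet all 4 LKO libraries lay below all 4 WT libraries, the only one of the 9 genes whose genotypes did not overlap there, where 9.25% of all genes did not. On ethanol 3 of 4 LKO libraries lay below every WT library, and LKO ethanol 1 (4.84) lay above WT ethanol 2 (4.55) alone. None of the 9 genes was apart there, against 2.69% of all genes, while without WT ethanol 2 Plin4 was, against 7.03%. Mean FPKM in WT was 3.01 times that in LKO on the control diet and 2.82 times on ethanol, or 5.2 times without LKO ethanol 1 (a mean of 1.11 ± 0.239 FPKM in LKO, SD, n = 3). The log2 differences were -1.09 (SE 0.36, adjusted p = 1.0) and -1.31 (SE 0.36, adjusted p = 0.214).

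Over both diets Plin4 in LKO differed from WT by -1.2 (SE 0.26, CI -1.73 to -0.66), with an unadjusted p of 0.000215 and an adjusted p of 0.0808. That missed the threshold, in the comparison where 0.142% of all genes were called. It passed without LKO ethanol 1 (-1.38, adjusted p = 0.0239, with 0.0888% of genes called). It also passed without WT ethanol 2 (-1.24, adjusted p = 0.042, with 0.859% of genes called). Its sign was the same in every fit that left out 1 library. With array weights, fits that called 30.7% of all genes on ethanol and 34.1% over both diets, it passed on ethanol (-1.39, adjusted p = 0.00874) and over both (adjusted p = 0.00314). The term for libraries 1 and 2 against 3 and 4, with WT ethanol 2 left out, also made it pass over both (-1.23, adjusted p = 0.0203, with 11.1% of genes called). Within libraries 1 and 2 of each group the difference was -0.49 on the control diet and -0.69 on ethanol, and within libraries 3 and 4 it was -1.68 and -1.93. The fitted difference with ethanol was 0.05 in WT and -0.17 in LKO. Exons of Plin4 overlap those of Hdgfl2 on the opposite strand, and whether the counting used strand is not given.

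**Figure D2:**
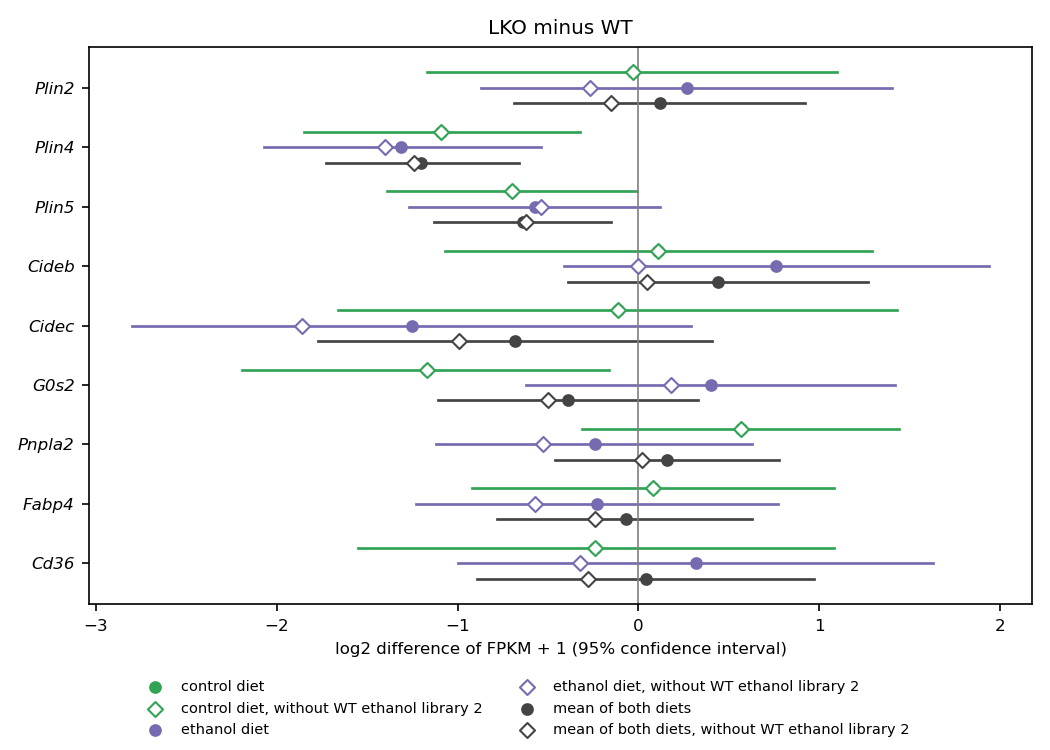
Log2 difference of FPKM + 1, LKO minus WT (horizontal axis), for the 9 genes that passed the filter, on the control diet, on the ethanol diet and as the mean of both, with 95% confidence intervals; open diamonds are the same estimates without WT ethanol 2 and cover the circle where the value is unchanged. Plin4 lies left of 0 in all 3 comparisons (-1.09, -1.31 and -1.2).

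Cidec encodes the droplet fusion protein FSP27, scarce in lean liver and abundant in white fat (ENSMUSG00000030278, chromosome 6, 113424634 to 113435760, minus strand). WT livers had 2.44, 2.56, 2.43 and 4.30 FPKM on the control diet and 62.8, 8.99, 25.2 and 95.1 on ethanol. LKO livers had 3.35, 2.39, 2.46 and 2.19 without ethanol and 19.8, 76.5, 7.15 and 2.77 on ethanol. All 4 ethanol libraries in WT lay above all 4 controls. In LKO, 3 of 4 did, and LKO ethanol 4 stayed inside the control range. Groups did not overlap in WT for 2 of the 9 genes, Cidec and Fabp4, against 10.1% of all genes, and without WT ethanol 2 also for Plin2 and Pnpla2, against 20.7%. The control libraries of both genotypes were low and close together, and nearly all of the spread was among the ethanol libraries.

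Mean Cidec was 48.0 ± 38.7 FPKM on ethanol against 2.93 ± 0.911 on the control diet in WT, a ratio of 16.4. It was 26.6 ± 34.1 against 2.6 ± 0.514 in LKO, a ratio of 10.2 (SD, n = 4). Without LKO ethanol 2 the LKO mean on ethanol was 9.92 ± 8.86 (n = 3) and the ratio 3.82. The log2 difference was 3.20 in WT (SE 0.73, adjusted p = 0.0213) and 2.06 in LKO (SE 0.73, adjusted p = 0.312). Over both genotypes Cidec rose by 2.63 (SE 0.52, CI 1.54 to 3.72, adjusted p = 0.00481). That call held in all 16 fits without 1 library, with differences from 2.24 to 2.96, and in all 9 other settings, with an adjusted p of at most 0.0255. The call in WT held in 12 of 16. It was lost without WT control 1 (adjusted p = 0.0647), WT control 2 (0.0634), WT control 4 (0.0518) or WT ethanol 4 (0.0647), and also with no filter on low values (0.0695). Without WT ethanol 2 the WT difference was 3.81. The LKO difference depended most on LKO ethanol 2, without which it was 1.27 (adjusted p = 0.85), and it was 2.72 without LKO ethanol 4 (adjusted p = 0.0911). It passed in 1 fit, with the term for libraries 1 and 2 against 3 and 4 and without WT ethanol 2. That fit (adjusted p = 0.0441) called 10.8% of all genes in LKO.

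Ethanol responses of Cidec could not be told apart between genotypes. The interaction, the LKO response minus the WT response, was -1.14 (CI -3.32 to 1.04, adjusted p = 0.927), an interval wide enough to hold no difference as well as a large one. It was -1.93 without LKO ethanol 2 and -0.48 without LKO ethanol 4. On the ethanol diet LKO differed from WT by -1.25 (SE 0.73, adjusted p = 0.515), and by -2.05 without LKO ethanol 2 and -0.59 without LKO ethanol 4. With array weights that difference was -1.61 and passed (adjusted p = 0.0333), in a fit that called 30.7% of all genes. Within libraries 1 and 2 that difference was 0.67, and within libraries 3 and 4 it was -3.18. The 0.67 rested on WT ethanol 2, and without that library it was -0.67, with WT ethanol 1 alone on the WT side.

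Cideb encodes the CIDE protein of hepatocytes, which loads lipid onto very low density lipoprotein (ENSMUSG00000022219, chromosome 14, 55754050 to 55758458, minus strand). WT livers had 4.61, 8.03, 13.6 and 9.54 FPKM on the control diet and 4.14, 0, 10 and 9.28 on ethanol. LKO livers had 7.69, 7, 12.5 and 10.2 without ethanol and 4.91, 6.12, 9 and 10.5 on ethanol. The 0 in WT ethanol 2 is 0 of 9890475 reads. The ethanol difference was -0.94 in WT (SE 0.56, adjusted p = 0.374) and -0.17 without that library, and -0.28 in LKO (SE 0.56, adjusted p = 0.986). Over both genotypes it was -0.61 (adjusted p = 0.41), and -0.23 without WT ethanol 2. No difference of Cideb passed, and its exons overlap those of Nop9 on the opposite strand.

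Cidea, the CIDE gene of brown fat, was near the limit of detection (ENSMUSG00000024526). It had 0 reads in all 4 WT control libraries and 1, 0, 3 and 7 in WT ethanol. In LKO it had 0, 0, 1 and 2 reads on the control diet and 2, 8, 0 and 0 on ethanol. Its highest value, 0.326 FPKM in LKO ethanol 2, is 8 reads. With the filter dropped, the difference over both genotypes was 0.12 (adjusted p = 0.415) and no call was made.

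Pnpla2 encodes ATGL, the lipase that takes the first fatty acid off triglyceride (ENSMUSG00000025509, chromosome 7, 141455198 to 141460743, plus strand). WT livers had 14.8, 12.3, 24.7 and 28.8 FPKM on the control diet and 32.0, 24.6, 63.1 and 83.0 on ethanol. LKO livers had 18.6, 18.6, 40.3 and 47.7 without ethanol and 30.3, 33.9, 56.7 and 35.9 on ethanol. In WT, 3 of 4 ethanol libraries lay above all controls, and WT ethanol 2 lay within their range. In LKO, 1 of 4 did. Libraries 3 and 4 were higher than libraries 1 and 2 in every group. The mean in WT was 50.7 ± 27.3 FPKM on ethanol against 20.2 ± 7.88, a ratio of 2.52, and in LKO 39.2 ± 11.9 against 31.3 ± 15, a ratio of 1.25.

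As log2 differences, Pnpla2 gave 1.21 in WT (SE 0.42, adjusted p = 0.112), 0.40 in LKO (SE 0.42, adjusted p = 0.918, and 0.2 to 0.63 leaving out 1 library) and 0.80 over both (SE 0.29, adjusted p = 0.108), none past the threshold. Without WT ethanol 2 the WT difference was 1.49 (adjusted p = 0.0297, with 9.27% of genes called) and that over both was 0.94 (adjusted p = 0.0231). A term for libraries 1 and 2 against 3 and 4 left the WT difference at 1.21 and made it pass (adjusted p = 0.00753). The WT difference also passed with quantile scaling, with array weights and with that term without WT ethanol 2. In that order these 4 fits called 6.87%, 8.25%, 38.4% and 19.7% of all genes. Over both genotypes Pnpla2 passed in the same 4 fits, which called 12.3% to 36.7% of all genes. Within libraries 1 and 2 the WT difference was 1, and within libraries 3 and 4 it was 1.41. That split is seen in the values and is not named in the labels.

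G0s2 encodes the small protein that binds ATGL and blocks it (ENSMUSG00000009633, chromosome 1, 193272161 to 193273217, minus strand). WT livers had 217, 142, 423 and 91.3 FPKM on the control diet and 75.1, 51.0, 160 and 70.8 on ethanol. LKO livers had 111, 92.5, 84.6 and 51.6 without ethanol and 184, 79.1, 57.0 and 161 on ethanol. In WT, 3 of 4 ethanol libraries lay below every control, and WT ethanol 3 lay among them. In LKO, 2 of 4 ethanol libraries lay above every control and the other 2 within their range. WT control thus had the highest mean, 218 ± 146 FPKM, with WT control 3 at 423, and the other 3 group means were 84.9 to 120.

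No comparison of G0s2 passed. The ethanol difference was -1.19 in WT (SE 0.48, unadjusted p = 0.0248, adjusted p = 0.181) and 0.39 in LKO (SE 0.48, adjusted p = 0.939), where leaving out 1 library gave 0.13 (without LKO ethanol 1) to 0.69 (without LKO ethanol 3). Their difference, the interaction, was 1.58 (CI 0.14 to 3.01, unadjusted p = 0.0335, adjusted p = 0.927), and for interaction limma and voom called 0 of the 9 genes, where limma called 0.0% of the 11298 (362 of them, and G0s2 alone of the 9, had an unadjusted p under 0.05, 3.2% of all genes). On the control diet LKO differed from WT by -1.17 (SE 0.48, adjusted p = 1.0). Without WT control 3, the WT ethanol difference was -0.79, the genotype difference -0.78 and the interaction 1.18.

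Fabp4 encodes the fatty acid carrier of adipocytes, macrophages and capillary endothelium (ENSMUSG00000062515, chromosome 3, 10204088 to 10208576, minus strand). WT livers had 15.3, 13.6, 9.34 and 6.33 FPKM on the control diet and 76.2, 21.6, 35.1 and 69.4 on ethanol. LKO livers had 14.0, 19.8, 7.17 and 7.87 without ethanol and 40.7, 90.4, 27.6 and 20.6 on ethanol. All 4 ethanol libraries lay above all 4 controls in WT and in LKO, WT ethanol 2 included. It was the 1 gene of the 9 whose diets did not overlap in LKO, where 12.3% of all genes did not. The mean was 50.6 ± 26.4 against 11.2 ± 4.08 FPKM in WT, a ratio of 4.54, and 44.8 ± 31.5 against 12.2 ± 5.91 in LKO, a ratio of 3.67, or 2.43 without LKO ethanol 2 (29.7 ± 10.2, n = 3).

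Over both genotypes Fabp4 rose by 1.83 (SE 0.34, CI 1.12 to 2.54, adjusted p = 0.00304). That call held in all 16 fits without 1 library (differences from 1.63 to 2) and in the 9 other settings (adjusted p at most 0.0148). In WT the difference was 1.98 (SE 0.47, adjusted p = 0.0267). The WT call was lost without WT control 1 (adjusted p = 0.0527), WT control 2 (0.0603), WT control 3 (0.0617), WT control 4 (0.0974) or WT ethanol 4 (0.0736), and with no filter on low values (0.0701). In LKO the difference was 1.68 (SE 0.47, adjusted p = 0.16), and it passed when WT ethanol 2, which enters only the shared estimate of spread, was left out (adjusted p = 0.0394, with 3.67% of genes called). Without LKO ethanol 2 it was 1.27 (adjusted p = 0.539). The interaction was -0.31 (CI -1.72 to 1.11).

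**Figure D3:**
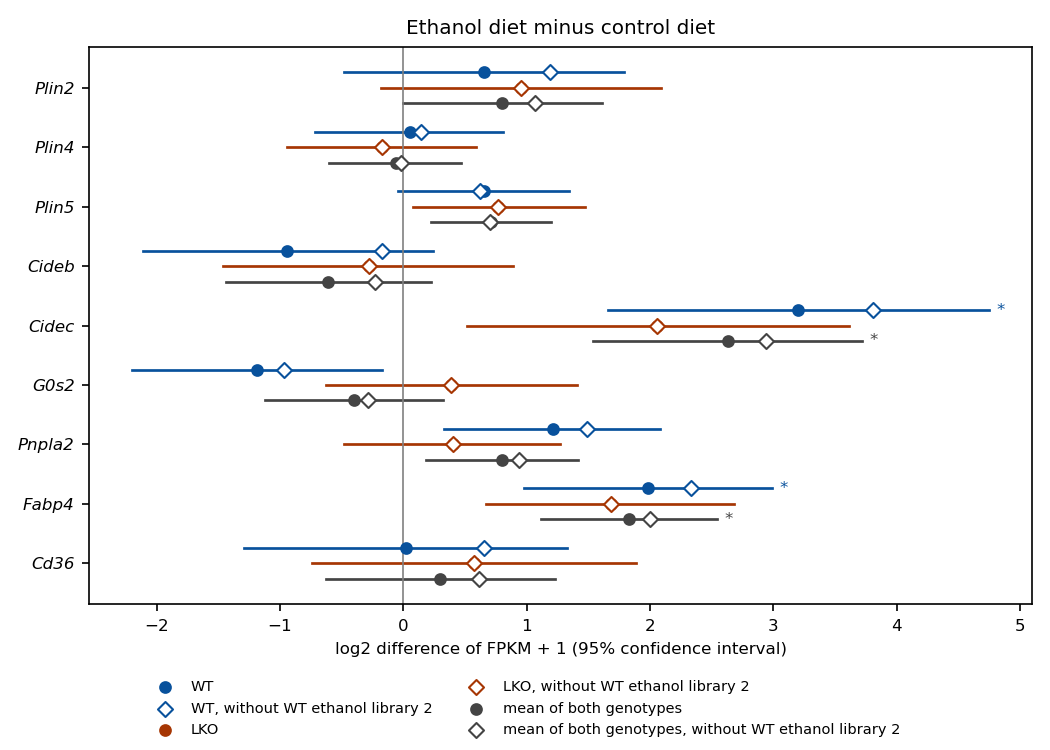
Log2 difference of FPKM + 1, ethanol minus control diet (horizontal axis), for the 9 genes that passed the filter, in WT, in LKO and as the mean of both, with 95% confidence intervals; an asterisk marks an adjusted p under 0.05 and open diamonds are the same estimates without WT ethanol 2. Cidec (3.20 in WT, 2.63 over both) and Fabp4 (1.98 and 1.83) carry asterisks.

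Cd36 encodes the fatty acid translocase of the plasma membrane (ENSMUSG00000002944, chromosome 5, 17781690 to 17888801, minus strand). WT livers had 58.1, 36.9, 24.1 and 13.5 FPKM on the control diet and 50.7, 7.17, 34.5 and 56.6 on ethanol. LKO livers had 42.3, 37.3, 29.0 and 7.47 without ethanol and 47.7, 60.6, 22 and 29.0 on ethanol. The ranges overlapped in both genotypes, and control libraries alone spanned 7.47 to 58.1 FPKM. The difference was 0.02 in WT (CI -1.29 to 1.33, adjusted p = 0.991) and 0.57 in LKO (CI -0.74 to 1.89, adjusted p = 0.921), or 0.04 without LKO control 4. In WT its sign changed under several settings, and it was 0.65 without WT ethanol 2. Over both genotypes it was 0.30 (SE 0.44, adjusted p = 0.763), 0.61 without WT ethanol 2 (adjusted p = 0.26) and 0.03 without LKO control 4. Cd36 was called over both genotypes in 1 of the 25 alternatives, the term for libraries 1 and 2 against 3 and 4 without WT ethanol 2 (0.7, adjusted p = 0.0487), where 32.7% of all genes were called.

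The ethanol libraries did not respond evenly. WT ethanol 4, LKO ethanol 2 and WT ethanol 1 held the 3 highest values of Cidec (95.1, 76.5 and 62.8 FPKM) and also the 3 highest of Fabp4 (69.4, 90.4 and 76.2). LKO ethanol 4 had the lowest Cidec (2.77) and the lowest Fabp4 (20.6) among the ethanol libraries. LKO ethanol 2 also had the highest Plin2 (1054) and Cd36 (60.6) of all 16 libraries. Amounts of ethanol taken in and liver fat are not given in the sources used here.

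Markers of other cells that use these proteins were read beside the results. Of the 7 adipocyte markers, Lep and Ucp1 had 0 reads in all 16 libraries, Adipoq and Retn at most 1 read, Plin1 at most 9 and Cfd at most 10. Lipe, which hepatocytes also express, had 86 to 429 reads. The summed adipocyte markers were 1.98 to 5.2 FPKM in the 8 control libraries and 1.25 to 4.53 in the 7 ethanol libraries other than WT ethanol 2. For the 7 macrophage and Kupffer cell markers the sums were 98.2 to 326 FPKM on the control diet and 57.0 to 330 on ethanol, and for the 7 endothelial markers 39.1 to 124 and 46.3 to 111. Hepatocyte markers stood at 54190 to 71876 and 41595 to 70521 FPKM. Stellate cell markers summed to 35.9 to 123 and 82.7 to 149, cholangiocyte markers to 1.15 to 2.81 and 1.79 to 4.76, neutrophil markers to 0.938 to 6.11 and 2.58 to 20.3, and skeletal muscle markers to at most 0.0878 and 0.671. In WT ethanol 2 the endothelial sum (16.4) and the stellate sum (16) lay below all other libraries and the cholangiocyte sum (8.62) above them. Its hepatocyte sum was 61675, but 5 of the 6 hepatocyte markers lay outside the other 15 libraries: Alb (23000 FPKM against at least 27582), Hnf4a (22.2 against at least 94) and Cps1 (36.5 against at least 339) below them, Apoa1 (34502 against at most 10826) and Serpina1c (497 against at most 277) above. The other sums were 4.56 for adipocytes, 102 for macrophages, 11.3 for neutrophils and 0.487 for skeletal muscle. In 4 of these lists 1 marker rose over both genotypes, where 7.78% of all genes were called: Lyve1 (endothelium) by 1.75 (adjusted p = 0.0208), Retnlg (neutrophils) by 0.91 (0.0172), Sox9 (bile duct cells) by 0.79 (0.016) and Des (stellate cells) by 0.57 (0.0379). The list medians were -0.33 for endothelium, with 4 of its 7 markers below 0, 0.91 for 3 neutrophil markers, 0.79 for the 1 tested bile duct marker and 0.07 for 5 stellate markers. When WT ethanol 2 was left out (20.5% of all genes called), Lyve1, Pecam1 and Cdh5 rose in the endothelial list and its median was -0.26. Marco (Kupffer cells) and Cps1 (hepatocytes) then rose as well and Ttr (hepatocytes) fell, and the calls of Retnlg, Sox9 and Des were kept. With all libraries, the median over both genotypes was -0.34 for macrophages and Kupffer cells, with 2 of 7 markers above 0. It was -0.13 for hepatocytes, with 2 of 6 above 0. In WT, where 4.18% of all genes were called, Marco rose by 1.71 (adjusted p = 0.0379) and Des by 0.93 (adjusted p = 0.0296). The WT medians were 0.05 for macrophages and Kupffer cells, with 4 of 7 markers above 0, and 0.07 for stellate cells, with 3 of 5. In LKO no marker was called. When WT ethanol 2 was left out, Marco, Cd68, Lyve1, Cdh5 and Des rose in WT (9.27% called) and Lyve1 in LKO (3.67% called). The endothelial medians were then -0.35 in WT and -0.13 in LKO, with 3 of 7 markers above 0 in each. Medians in WT were 0.34 for macrophages and Kupffer cells (7 of 7 above 0) and 0.75 for stellate cells (4 of 5), beside 0.17 for all genes. The part of these cells in the rise of Fabp4 and Cidec was not tested.

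The other genes of the pathway were read in 4 lists over both genotypes, beside a median of 0.02 for all tested genes, 0.11 without WT ethanol 2. Called were 7.78% of all genes, and 20.5% without it. Among 15 tested genes of droplet coat and assembly, 2 rose and none fell, with a median of 0.10. Leaving out WT ethanol 2, 5 rose (Hilpda, Plin3, Hsd17b13, Tmem159 and Faf2) and Ldah fell, with a median of 0.09. Hilpda, which encodes an inhibitor of ATGL found on droplets, rose by 1.60 (SE 0.42, adjusted p = 0.0272), from 2.05 ± 0.625 to 13.0 ± 14.8 FPKM in WT and from 1.33 ± 0.323 to 7.82 ± 7.89 in LKO. Its ethanol libraries were uneven, at 1.54 to 34.8 FPKM in WT and 3.17 to 19.6 in LKO. Plin3, a cytosolic perilipin that moves onto young droplets, rose by 0.98 (SE 0.28, adjusted p = 0.0396). The call of Hilpda was lost in 6 of 25 alternatives and that of Plin3 in 13 of 25. The 9 tested members of the set of 10 had a median of 0.71.

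Among 10 genes of lipolysis none rose and 2 fell, with a median of -0.61. Ces1d and Aadac fell and Abhd5 rose when WT ethanol 2 was left out (median -0.36). Ces1d, a carboxylesterase that hydrolyses hepatic triglyceride, fell by 1.62 (SE 0.29, adjusted p = 0.00245), from 814 ± 193 to 179 ± 98.9 FPKM in WT and from 517 ± 102 to 296 ± 147 in LKO. Aadac, a related hydrolase of the endoplasmic reticulum, fell by 0.91 (SE 0.22, adjusted p = 0.0168). Pnpla2, with 0.80, lay on the other side of 0 from these hydrolases.

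Among 19 tested genes of fatty acid uptake, binding and activation, 1 rose and 2 fell, with a median of -0.25. The counts were 4 and 5 when WT ethanol 2 was left out (median -0.24). Vldlr, the receptor for triglyceride-rich lipoproteins, rose by 1.03 (SE 0.19, adjusted p = 0.003). Fabp1, the main fatty acid carrier of hepatocytes, fell by 1.39 (SE 0.26, adjusted p = 0.00348), from 7443 ± 2139 to 2552 ± 843 FPKM in WT and from 9751 ± 3534 to 4310 ± 1998 in LKO. Fabp5 fell by 1.93 (SE 0.38, adjusted p = 0.00488). Lpl, the lipase that frees fatty acids from circulating triglyceride, was called in WT, where it rose by 1.94 (SE 0.53, adjusted p = 0.0481) from 3.05 ± 0.528 to 21.9 ± 22.4 FPKM, and that call was lost in 16 of 25 alternatives. Its WT ethanol libraries ranged from 3.13 to 54.0 FPKM. Fabp4 thus moved opposite to Fabp1 and Fabp5, and on ethanol it stood at 50.6 and 44.8 FPKM against 2552 and 4310 FPKM for Fabp1.

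Of 10 regulators, 1 rose and 2 fell, with a median of -0.29, and without WT ethanol 2 the counts were the same (median -0.25). Srebf1, the driver of fat synthesis genes, fell by 2.09 (SE 0.32, adjusted p = 0.00113), and Ppara, the fatty acid sensor that drives oxidation genes, fell by 1.22 (SE 0.32, adjusted p = 0.0294). Creb3l3, a liver factor that activates fasting genes, rose by 0.56 (SE 0.15, adjusted p = 0.033). Creb3l3 and Ppara lost their calls in 11 and 9 of 25 alternatives, while the falls of Srebf1, Ces1d, Aadac, Fabp1 and Fabp5 and the rise of Vldlr kept theirs in all 25. Pparg, the adipogenic factor for which Cidec and Fabp4 are textbook targets, had 10, 8.17, 5.24 and 4.75 FPKM in WT control and 8.25, 1.42, 8.05 and 7.65 in WT ethanol. It had 10.8, 9.14, 8.81 and 7.85 in LKO control and 17.2, 18, 9.64 and 8.33 in LKO ethanol. The lowest value was that of WT ethanol 2. The Pparg difference was 0.08 over both genotypes (SE 0.27, adjusted p = 0.904), the mean of -0.26 in WT and 0.43 in LKO. Without WT ethanol 2 it was 0.32 over both (adjusted p = 0.235) and 0.21 in WT. It passed in 1 fit, that with the term for libraries 1 and 2 against 3 and 4 and without WT ethanol 2 (0.36, adjusted p = 0.0286), where 32.7% of all genes were called. Within WT alone, 3 lipolysis genes fell, 2 uptake genes rose and 1 fell, 1 regulator fell, and none of the coat and assembly genes was called, where 4.18% of all genes were. When WT ethanol 2 was left out, 9.27% were called: 1 lipolysis gene rose and 3 fell, 3 uptake genes rose and 2 fell, 1 regulator rose and 1 fell, and 3 coat and assembly genes rose. Within LKO alone limma called 1 gene of the 4 lists, Fabp5, which fell by 2.77 (adjusted p = 0.0323), where 0.425% of all genes were called. Voom called 2 of the 54 there, and 15 of the 54 had an unadjusted p under 0.05 by limma, against 9.19% of all genes. In the fit without WT ethanol 2, where 3.67% were called, there were 3, with Vldlr higher and Fabp5 and Srebf1 lower. Between genotypes limma and voom called none of the 54 tested genes of the 4 lists, with 5 at an unadjusted p under 0.05 on the control diet, 12 on ethanol and 10 over both diets by limma, against 3.45%, 11.9% and 10.4% of all genes. Leaving out WT ethanol 2, limma called 1 of them over both diets, Vldlr, which was lower in LKO. Genes named here for a fit that leaves out that library were chosen after their values were seen. None was called for interaction either, with 5 at an unadjusted p under 0.05, against 3.2%.

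**Figure D4:**
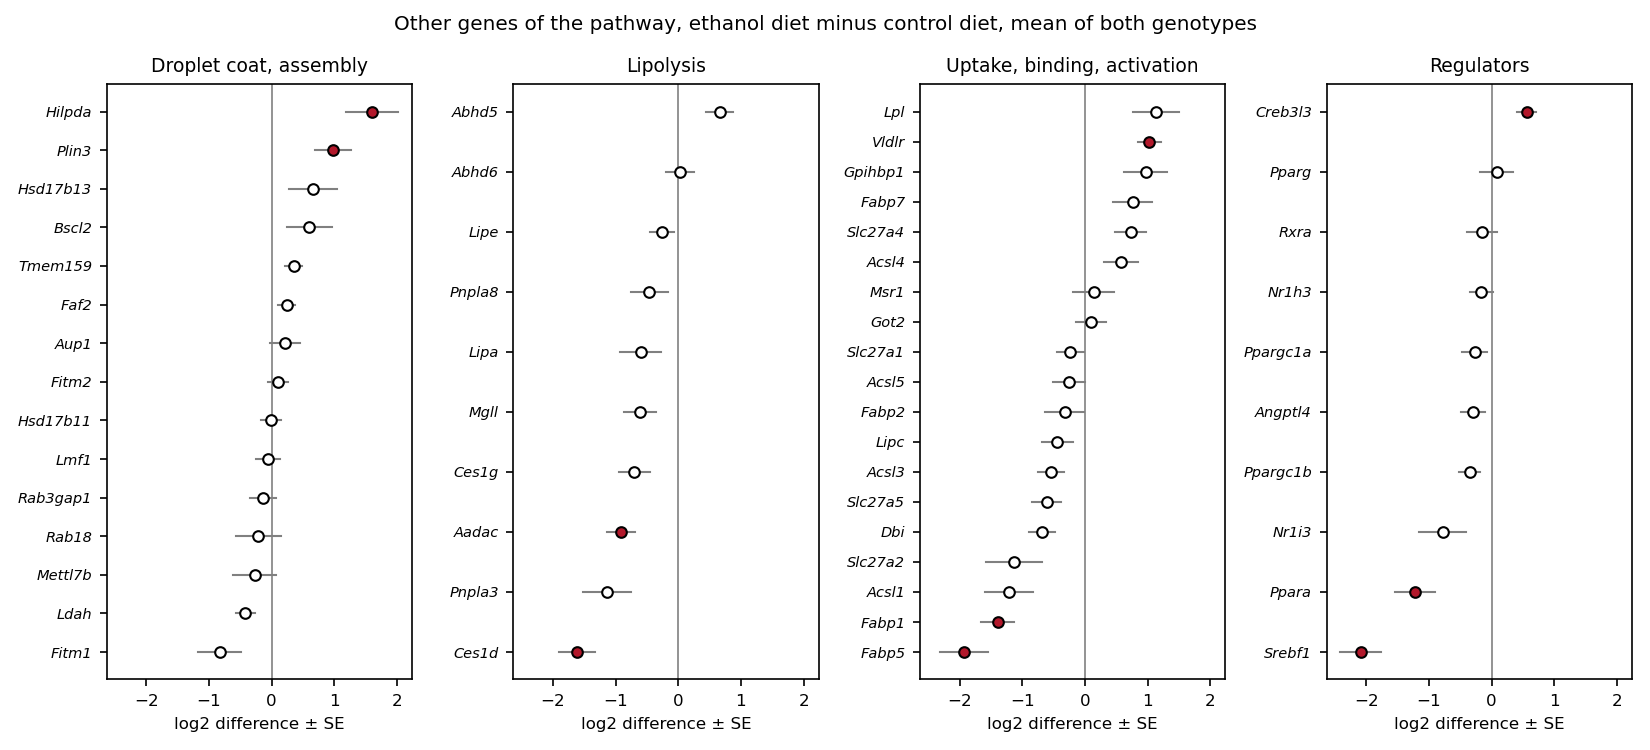
Log2 difference of FPKM + 1, ethanol minus control diet as the mean of both genotypes (horizontal axis), for the tested genes of the 4 lists, with bars of 1 SE; filled points have an adjusted p under 0.05. Filled points lie right of 0 for Hilpda, Plin3, Vldlr and Creb3l3 and left of 0 for Ces1d, Aadac, Fabp1, Fabp5, Ppara and Srebf1. Tmem159 is the table's symbol for Ldaf1.

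Across the 16 libraries, the gene most like each member was found by Pearson's r of log2(FPKM + 1) over all other tested genes. For Cidec it was Cd93 (r = 0.965), for Fabp4 Psmd8 (0.97), for Plin2 Rras2 (0.958) and for Cd36 Mtif3 (0.94). For Pnpla2 it was Ttyh2 (0.923), for Plin5 Ube2u (0.827), for Plin4 Angptl4 (0.814) and for G0s2 Zfp354a (0.803). Cideb was most like Sdhc (0.979, and 0.914 without WT ethanol 2). Over the 15 libraries other than WT ethanol 2 the gene most alike was the same for 3 of the 9, Fabp4, Cd36 and G0s2. For the rest it became Gskip for Cidec (r = 0.97), Pla2g12b for Plin2 (0.962), Dctn2 for Pnpla2 (0.956), Atp5a1 for Cideb (0.949), Purg for Plin4 (0.881) and Tgoln1 for Plin5 (0.847). These r are descriptions, each the highest among the genes searched, over libraries that share the same 4 groups.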

How the data were processed

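The authors deposited 1 table of FPKM values, 1 column for each of 16 mouse liver libraries, made with standard Illumina preparation of total RNA per the labels' protocols. STAR 2.6.1, fastp, HTSeq, DESeq2 and the build mm10 are listed in the submitters' processing notes with no role, and annotation, strand setting and gene length rule are not given in the sources used here. Without a strand setting, reads of genes that overlap cannot be told apart. Symbols and positions are from GENCODE M21 (34490 of 35275 IDs matched), promoters from RefSeq. Low values stepped in whole reads: for 20520 genes detected in 4 or more libraries, 100% of values lay within 0.1 of a whole read, which gave depth.

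From the FPKM, log2(FPKM + 1) of 11298 genes with at least 1 FPKM in at least 4 libraries was fitted by limma 3.58.1 in R 4.3.3 (4 group means, eBayes with trend), with Benjamini-Hochberg adjustment over all of them. The main fit was also run on simulated reads. All simulated libraries shared the same spread, so that run did not cover a library standing apart as WT ethanol 2 does, or the split of libraries. Groups came from the treatment labels. Alternatives were a pseudocount of 0.1, no filter, quantile and median-of-ratios scaling, array weights, voom on whole reads, each library left out, a term for libraries 1 and 2 against 3 and 4, that term without WT ethanol 2, and, added after seeing the data, a block of libraries with consecutive title numbers. All 10 members were named, and for each list the called genes with the smallest adjusted p, at most 4. Pparg, which was not called in the main fit, was described outside that rule because Cidec and Fabp4 are textbook targets of it. The members, lists, the split of libraries and the doubt about WT ethanol 2 were chosen with earlier results of these data known, so nothing here is independent of those results.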

Additional observations from a re-analysis of the deposited data

Results flagged for a closer look

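For each of the 10 genes, the highest and the lowest library of every group of 4 were compared with the rest of the group. In 3 of the 40 groups, 1 library stood apart by Dixon's test at its 95% critical value, and chance does this in about 1 group of 20. Cidea in WT control was 0 in every library, so that group could not be flagged. Plin2 in WT control 4 was 146 FPKM, below the 254 to 275 of the other 3. Plin4 in LKO ethanol 1 was 4.84 FPKM, above the 0.882 to 1.36 of the other 3. Cidec in WT control 4 was 4.3 FPKM, above the 2.43 to 2.56 of the other 3, and below every WT ethanol library.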

How the results depend on the processing

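Over 25 alternatives, the 63 differences of the 9 tested genes kept direction and side of the threshold in 1448 of 1575 cases, lost a call in 11, gained one in 34 and changed sign in 82. No difference that was called changed sign. The number of genes called was 2 for ethanol in WT (4.18% of all genes). It was 0 with no filter (1.16%) and 3 with quantile scaling (8.25%). The term for libraries 1 and 2 against 3 and 4 gave 3 (6.87%), and that term without WT ethanol 2 gave 4 (19.7%). Array weights gave 4 (38.4%), and leaving out 1 library gave 0 to 3 (1.29% to 9.27%). In LKO it was 0 (0.425%), then 2 (Cidec and Fabp4) without WT ethanol 2 plus the term (10.8%). Leaving out 1 library gave 0 to 1 there (0.0532% to 3.67%). Over both genotypes it was 2 (7.78%), then 3 with quantile scaling (12.9%), 4 with the term (12.3%) and 5 with array weights (36.7%). It was 6 without WT ethanol 2 plus the term (32.7%), and 2 to 5 leaving out 1 library (4.48% to 20.5%). LKO against WT on ethanol called 0, and 2 with array weights, Plin4 and Cidec (30.7%). Over both diets it called 0, then 2 with array weights, Plin4 and Plin5 (34.1%, with Plin5 at -0.52, adjusted p = 0.0369). Without WT ethanol 2 plus the term it called 1 (11.1%), and leaving out 1 library 0 to 1 (0.0709% to 0.881%).

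Signs changed as follows, and the cause was not tested. With ethanol, leaving out 1 library, Plin4 ranged from -0.17 to 0.36 in WT (below 0 without WT control 1, WT control 2 or WT ethanol 4), from -0.54 to 0.002 in LKO (above 0 without LKO ethanol 3) and from -0.25 to 0.095 over both (above 0 without WT control 3 or LKO ethanol 3), and Cd36 from -0.33 to 0.65 in WT (below 0 without WT control 3, WT control 4, WT ethanol 1, WT ethanol 3 or WT ethanol 4). Array weights gave 0.067 for Plin4 over both, and for Cideb 0.24 in WT and 0.073 over both. Pparg over both, of the regulators, ranged from -0.002 to 0.32 (below 0 without WT ethanol 1). Cd36 in WT was -0.042 with median-of-ratios scaling and -0.02 with voom.

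For LKO against WT on the control diet, leaving out 1 library gave -0.24 to 0.13 for Plin2, -0.14 to 0.32 for Cideb, -0.21 to 0.039 for Cidec, -0.17 to 0.28 for Fabp4 and -0.59 to 0.29 for Cd36. On ethanol it gave -0.27 to 0.65 for Plin2, -0.002 to 1.15 for Cideb, -0.53 to 0.045 for Pnpla2, -0.63 to 0.058 for Fabp4 and -0.32 to 0.62 for Cd36. Over both diets it gave -0.15 to 0.31 for Plin2, -0.28 to 0.069 for Fabp4 and -0.28 to 0.3 for Cd36. For interaction it gave -0.24 to 0.68 for Plin2, -0.1 to 0.35 for Plin5, -0.11 to 1.04 for Cideb and -0.079 to 0.9 for Cd36. The genotype differences of Plin2, Cideb and Cd36 on ethanol and their interactions changed sign without WT ethanol 2.

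Array weights gave, on the control diet, 0.033 for Plin2, and on ethanol -0.33 for Plin2, -0.26 for Cideb, -0.28 for G0s2 and -0.18 for Cd36. Over both diets they gave -0.15 for Plin2, -0.099 for Cideb, -0.14 for Pnpla2 and -0.14 for Cd36, and for interaction -0.36 for Plin2, -0.33 for Cideb and -0.064 for Cd36. The term without WT ethanol 2 gave -0.42 on ethanol, -0.23 over both diets and -0.39 for interaction for Plin2, and -0.49, -0.37 and -0.25 for Cd36. Median-of-ratios scaling gave 0.12 for Plin2 on the control diet and 0.055 for Fabp4 over both diets, and quantile scaling 0.063 for Cidec on the control diet. Median-of-ratios scaling moved the median of all genes by 0.11 between genotypes on ethanol and by 0.116 on the control diet.

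The labels state no pairs and no 2 libraries share a number, but in 5 cases the number in an ethanol library's title follows that of a control library of its genotype. The number of LKO ethanol 2, in 1 of the 5, also precedes that of LKO control 4, and that pairing was not fitted. A replicate block of these 5 pairs, chosen after seeing the data (limma, estimated correlation 0.158), called 2 genes in WT (6.58% of all genes), 0 in LKO (0.628%) and 3 over both genotypes (10.5%), and none between genotypes or for interaction. Plin5 over both genotypes passed with it (0.7, adjusted p = 0.0494), and Cd36, LKO against WT over both diets, was -0.039. Deviations from the group means correlated at -0.063 to 0.453 within these pairs, over 0.1 in 4 of 5. Cidea, at 0 to 8 reads a library, was too shallow for its comparisons to be read as a result.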
